A study of Mus musculus with 12 samples.

Results

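Messenger RNA of 10 genes of sirtuin biology and NAD metabolism was examined in scWAT, the white fat under the skin, of 12 female mice. The 10 genes were chosen by name, with earlier results of these data known, from the 55401 genes with counts. They comprise the sirtuins Sirt1, Sirt3 and Sirt5, the NAD-forming enzymes Nampt, Nmnat1 and Nmnat3, the NAD kinases Nadk and Nadk2, the nicotinamide methyltransferase Nnmt and the mitochondrial transhydrogenase Nnt. The mice formed 4 groups of 3, each library taken as 1 mouse: WT (Jmjd1a +/+) and Jmjd1a HY/HY (HY) mice under thermoneutral (TN, 30°C) conditions, and both genotypes under cold exposure (CE, 8°C). All mice were 16 weeks old at the start and were caged singly for 1 week at 30°C and then 1 week at the final temperature. The HY allele carries the H1122Y substitution, which removes the histone demethylase activity of JMJD1A. It was made by genome editing in C57BL/6J eggs, and the females of the study came from a single line. The allele is present in all cells of the mouse, so the libraries do not tell whether a difference arose in adipocytes or elsewhere.

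NAD carries electrons in cellular metabolism and is also consumed as a substrate. Sirtuins use it to remove acyl groups from proteins and release nicotinamide, which NAMPT converts to nicotinamide mononucleotide and NMNAT enzymes then convert back to NAD. SIRT1 acts mainly in the nucleus, whereas SIRT3 and SIRT5 are mitochondrial and remove acetyl groups and succinyl or malonyl groups, respectively. NNMT diverts nicotinamide by methylation, and NAD kinases turn NAD into NADP. In fat, beige adipocytes are rich in mitochondria and arise during cold exposure.

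The sense-strand counts that were used ranged from 18305586 to 23652011 per library in WT and from 21043000 to 26352081 in HY mice at 30°C. At 8°C they ranged from 14722081 to 17955584 and from 13592629 to 15936452. Levels are given in CPM, the counts of a gene relative to the library size as scaled by the TMM method, and differences as log2 fold changes from edgeR's quasi-likelihood test, with p-values adjusted by the Benjamini-Hochberg method over 16540 genes. Calls required an adjusted p under 0.05 together with a fold change over 1.5 or under 0.67. Kdm3a, the gene of JMJD1A, was at 35.7 to 61.7 CPM in WT and 37.4 to 52.7 CPM in HY mice, and was called in no comparison. At 8°C the 3 HY libraries (43.2 to 45.8 CPM) lay just above the WT libraries (35.7 to 42.9 CPM), a separation that 16.4% of all genes tested showed. White adipocyte markers were abundant in all 12 libraries. Ucp1, which marks beige cells, was at 0.433 to 4.58 CPM in WT and 0.116 to 1.96 CPM in HY mice at 30°C. In the cold, Ucp1 reached 5048 to 6055 CPM in WT and 212 to 904 CPM in HY mice. The summed skeletal muscle markers were at 1206 CPM in WT 30°C replicate 2 and at 22.6 CPM or less in each of the other 11 libraries, and the same member genes were called without that library, apart from the Sirt5 interaction discussed below.

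Of the 9 members tested, Sirt3 had the largest fold change by cold in WT mice. Its level was 3.01-fold higher in WT mice at 8°C than at 30°C, whereas in HY mice its means were 19.6 ± 2.39 CPM at 30°C and 20.3 ± 1.29 CPM at 8°C (SD, n = 3 each). Nmnat1 and Nadk2 were also called higher in the cold in WT mice, and Sirt3, Sirt5 and Nmnat1 were called lower in HY than in WT mice at 8°C. For Sirt3 and Sirt5 the cold response itself was called different between the genotypes. That call held for Sirt3 in every alternative run and was lost for Sirt5 in 11 of 21. The call of Nmnat1 at 8°C was lost in 6 of 22 alternative runs. Sirt1, Nampt, Nmnat3 and Nadk were called in no comparison, and Nnt was barely detected in any library.

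The sequences before the genes of the 3 members called between the genotypes at 8°C are shown because these genes differed in mice with a mutant histone demethylase. They are RefSeq promoter windows on GRCm38.p6, read 5′ to 3′ on the strand of the gene and ending where the RefSeq gene span begins. Capitals mark a match to CCGGAAGT, which is a site of the ETS family to which GABP belongs, or to AAGGTCA, the half-site of estrogen-related receptors (ERR). Each was searched on both strands, and a match to CCGGAAGT on the other strand reads ACTTCCGG.
Sirt3 (chr7:140882310-140882559, minus strand): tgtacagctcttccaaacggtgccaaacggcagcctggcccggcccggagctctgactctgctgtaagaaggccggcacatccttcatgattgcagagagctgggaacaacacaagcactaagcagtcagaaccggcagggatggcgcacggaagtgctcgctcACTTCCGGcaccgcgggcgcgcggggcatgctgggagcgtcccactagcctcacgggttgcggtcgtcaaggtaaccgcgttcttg
Nmnat1 (chr4:149485211-149485460, minus strand): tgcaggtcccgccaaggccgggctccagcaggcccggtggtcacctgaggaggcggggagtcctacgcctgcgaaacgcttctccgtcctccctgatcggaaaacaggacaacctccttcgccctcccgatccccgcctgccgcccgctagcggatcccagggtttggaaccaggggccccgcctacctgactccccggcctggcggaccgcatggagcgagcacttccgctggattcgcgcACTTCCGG
Sirt5 (chr13:43365285-43365388, plus strand): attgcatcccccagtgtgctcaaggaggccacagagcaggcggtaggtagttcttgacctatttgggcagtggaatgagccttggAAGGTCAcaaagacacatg

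Over the full windows, which reach from 250 bases before to 50 bases after a transcript start, 7 of the 10 members had a sequence. CCGGAAGT was present in 1 of the 2 windows of Sirt3, in both windows of Nmnat1 and in 3.89% of all 32851 mouse windows. AAGGTCA was present in the 1 window each of Sirt5 and Nmnat3 and in 4.72% of all windows. The E-box CACGTG, also searched, occurred in the 1 window of Sirt1, in 1 of the 2 windows of Nadk and in 7.15% of all windows. These shares count windows, not genes. These matches describe letters and were not tested as binding sites.

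Sirt3 lies on chromosome 7 from 140863663 to 140882309 (RefSeq, GRCm38.p6) and encodes the main deacetylase of mitochondria. In WT mice at 30°C its level was 14.7, 17.3 and 19.4 CPM in replicates 1 to 3, and at 8°C it was 55.6, 49.3 and 49.9 CPM. In HY mice it was 17.7, 18.8 and 22.2 CPM at 30°C and 20.3, 21.6 and 19.0 CPM at 8°C. The 3 cold-exposed WT mice thus stood apart from the other 9, whose values overlapped. The mean rose from 17.1 ± 2.36 to 51.6 ± 3.46 CPM (SD, n = 3 each) in WT mice, a log2 fold change of 1.59 ± 0.13 (SE) with an adjusted p of 1.95e-05 by edgeR's quasi-likelihood test. In HY mice the log2 fold change by cold was 0.06, with a 95% confidence interval from −0.22 to 0.33, where the same test gave an adjusted p of 0.873.

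At 8°C, Sirt3 was lower in HY than in WT mice by a log2 fold change of −1.35 ± 0.13 (SE), with an adjusted p of 0.000627 in the edgeR test. At 30°C the genotypes did not differ beyond their spread, with a log2 fold change of 0.19. The cold response was smaller in HY than in WT mice by 1.54 ± 0.18 (SE) on the log2 scale, giving an interaction of −1.54 with an adjusted p of 0.00691 by edgeR. The exact two-sided permutation test of 3 mice against 3 gave p = 0.1, the smallest it can give, for the cold response in WT mice and for the genotypes at 8°C. Counted on both strands, Sirt3 kept only 62.8% of its sense counts, against 100% or more for the other 9 members, since pairs that overlap genes of both strands are then not assigned. Its 5 comparisons stayed on the same side of the threshold with those counts.

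Sirt5 (chromosome 13, 43365389 to 43395203) encodes the sirtuin that removes succinyl and malonyl groups in mitochondria. Its levels in WT mice were 18.0, 15.9 and 19.3 CPM at 30°C and 22.1, 25.9 and 26.4 CPM at 8°C. In HY mice they were 16.8, 22.5 and 20.7 CPM at 30°C and 13.0, 14.4 and 16.2 CPM at 8°C. The mean was 17.7 CPM at 30°C and 24.8 CPM at 8°C in WT mice, and 20.0 CPM and 14.5 CPM in HY mice. The log2 fold change by cold was 0.48 ± 0.14 (SE, edgeR adjusted p = 0.0273) in WT mice, a 1.40-fold difference under the fold limit and so not called. In HY mice it was −0.46 ± 0.14 (SE, edgeR adjusted p = 0.182), which did not pass the test.

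Between the genotypes at 8°C, Sirt5 fell from 24.8 ± 2.31 CPM in WT to 14.5 ± 1.57 CPM (SD, n = 3 each) in HY mice. The log2 fold change was −0.77 ± 0.14 (SE) with an adjusted p of 0.00905 by edgeR, which became 0.0509 without HY 8°C replicate 1. The interaction of −0.95 ± 0.20 (SE) had an adjusted p of 0.0339 by edgeR. The call was lost in 10 of the 12 fits that left out a library (all but those without WT 30°C replicate 3 or HY 30°C replicate 1), with adjusted p from 0.0570 to 0.102, whereas the value stayed between −1.06 and −0.85. In those 10 fits, negative interactions were called for 64 to 256 of all genes tested, against 342 in the main fit.

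**Figure D1:**
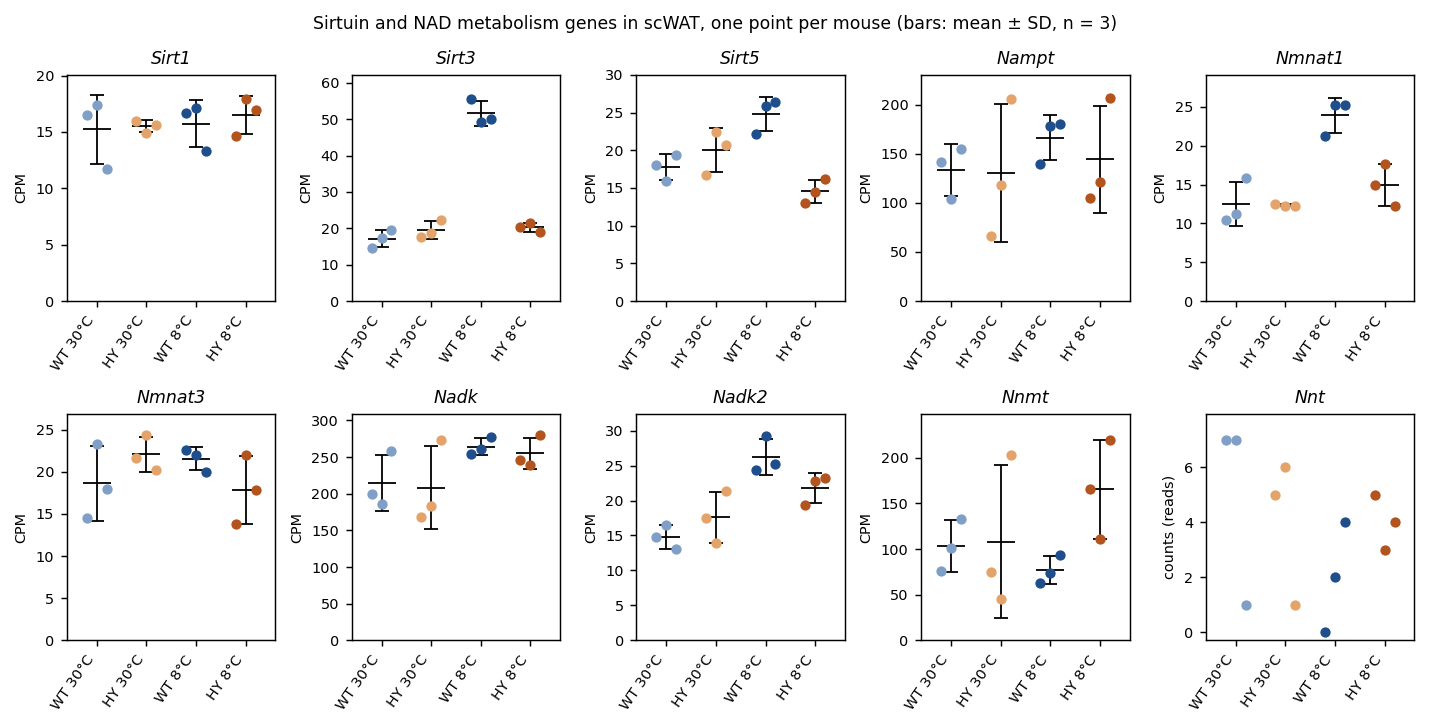
Levels of the 10 members by group, in CPM on TMM-scaled library sizes (for Nnt, raw counts), with 1 point for each mouse, ordered by replicate number within a group, and bars for the mean ± SD (n = 3). Sirt3 is at 49.3 to 55.6 CPM in the 3 WT mice at 8°C and at 14.7 to 22.2 CPM in the other 9.

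Among the enzymes that form NAD, Nmnat1 was called in the cold and Nampt and Nmnat3 were not. NMNAT1 makes NAD in the nucleus, and its gene lies on chromosome 4 from 149467569 to 149485210. In WT mice Nmnat1 was at 10.5, 11.3 and 15.8 CPM at 30°C and at 21.3, 25.2 and 25.2 CPM at 8°C. In HY mice it was at 12.5, 12.3 and 12.2 CPM at 30°C and at 15.0, 17.6 and 12.2 CPM at 8°C. All 3 cold-exposed WT mice were above the other 9 mice, and the temperatures overlapped in HY mice.

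The rise of Nmnat1 by cold in WT mice was a log2 fold change of 0.94 ± 0.17 (SE, edgeR adjusted p = 0.00289), against 0.28 ± 0.17 in HY mice, which did not pass the test (edgeR adjusted p = 0.487). At 8°C it was lower in HY mice by a log2 fold change of −0.68 ± 0.17 (SE, edgeR adjusted p = 0.0358). That call was lost with library totals in place of TMM (adjusted p = 0.106) and on leaving out each of 5 of the 6 cold-exposed libraries in turn (all but HY replicate 2), with adjusted p up to 0.144. In those 5 fits 301 to 499 of all genes tested were called lower, against 731 in the main fit. The interaction of −0.66 ± 0.24 (SE) did not pass the test (edgeR adjusted p = 0.223), so a smaller cold response of Nmnat1 in HY mice was not shown.

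Nampt (chromosome 12, 32820335 to 32853369), the rate-limiting enzyme of NAD salvage, varied widely between mice of a group. In WT mice it was at 142, 104 and 155 CPM at 30°C and at 139.8, 178 and 181 CPM at 8°C. In HY mice it was at 66.6, 119 and 206 CPM at 30°C and at 105, 121 and 206 CPM at 8°C. The groups overlapped throughout, and its log2 fold changes lay between −0.21 and 0.32 in the 4 pairwise comparisons. The 95% confidence interval of its cold response in WT mice ran from −0.45 to 1.09.

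Nmnat3 (chromosome 9, 98287433 to 98420533), a mitochondrial NMNAT enzyme, was at 13.8 to 24.3 CPM over the 12 libraries. Its group means were 18.6 ± 4.46 CPM in WT and 22.1 ± 2.12 CPM in HY mice at 30°C, and 21.5 ± 1.35 and 17.8 ± 4.08 CPM at 8°C (SD, n = 3 each). All comparisons of Nmnat3 overlapped, and none was called.

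Of the NAD kinases, Nadk2, which makes NADP in mitochondria, was called higher in the cold in WT mice, and the cytosolic Nadk was not called. The files carry Nadk2 under a gene ID that was matched by its neighbouring genes (RefSeq span on chromosome 15, 9071260 to 9110496). In WT mice Nadk2 was at 14.7, 16.5 and 13.0 CPM at 30°C and at 24.4, 29.2 and 25.2 CPM at 8°C. In HY mice it was at 17.5, 13.9 and 21.3 CPM at 30°C and at 19.3, 22.8 and 23.2 CPM at 8°C. Every cold-exposed WT mouse was above all other mice, and the temperatures overlapped in HY mice. The mean of Nadk2 was 14.75 CPM at 30°C and 26.26 CPM at 8°C in WT mice, and 17.58 CPM and 21.78 CPM in HY mice. The rise in WT mice was 0.83 ± 0.16 on the log2 scale (SE, edgeR adjusted p = 0.00391). With library totals in place of TMM it was 0.48 and under the fold limit.

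Nadk2 responded to cold by 0.31 ± 0.16 (SE, log2, edgeR adjusted p = 0.394) in HY mice. Neither the difference between the genotypes at 8°C, −0.27 ± 0.16 (edgeR adjusted p = 0.358), nor the interaction, −0.52 ± 0.23 (edgeR adjusted p = 0.308), passed the test. Nadk (chromosome 4, 155562381 to 155591001) had means of 215 ± 38.1 CPM in WT and 208 ± 57.0 CPM in HY mice at 30°C, and of 264 ± 11.8 and 255 ± 21.6 CPM at 8°C (SD, n = 3 each). Cold changed it by 0.30 in WT and 0.29 in HY mice on the log2 scale, neither called, and the groups overlapped in both.

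Sirt1 (chromosome 10, 63319005 to 63339035), the nuclear deacetylase, had much the same level everywhere, from 11.7 to 17.9 CPM over the 12 libraries. The 95% confidence interval of its log2 fold change by cold ran from −0.30 to 0.39 in WT and from −0.26 to 0.44 in HY mice. The interval between the genotypes at 8°C was −0.28 to 0.42.

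Nnmt (chromosome 9, 48538002 to 48607655) was the only member of the 9 tested whose 3 HY libraries all lay above the WT libraries at 8°C, a separation that 16.4% of all genes tested showed. It was at 63.3, 73.9 and 93.9 CPM in WT and at 165, 110.5 and 219.8 CPM in HY mice at 8°C. The 30°C levels of Nnmt were 75.6, 101 and 133 CPM in WT and 75.3, 45.2 and 203 CPM in HY mice. The genotypes did not overlap at 8°C and overlapped at 30°C, where replicate 3 of the HY mice lay far above the other 2.

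The log2 fold change of Nnmt between the genotypes at 8°C was 1.10 ± 0.46 (SE), with an unadjusted p of 0.0327 and an adjusted p of 0.177 by edgeR, and so was not called. It was called when only the 6 cold-exposed libraries were fitted (adjusted p = 0.0165) and without HY 30°C replicate 3 (adjusted p = 0.0346). In those fits 634 and 408 of all genes tested were called higher, against 249 in the main fit. Its adjusted p by edgeR was 0.430 without HY 8°C replicate 3. The interaction of Nnmt, 1.04 ± 0.64 (SE), did not pass the test (edgeR adjusted p = 0.477). Without HY 30°C replicate 3 the cold response of Nnmt in HY mice was 1.46 on the log2 scale and called (edgeR adjusted p = 0.0351), against 0.62 with that library. Nnmt is expressed by adipocytes, and the summed white adipocyte markers stood beside it at 27440 to 33550 CPM in WT and 33520 to 43670 CPM in HY mice at 8°C. Other cell types also differed between these groups. Macrophage markers summed to 109.6 to 118 CPM in WT and 160.5 to 242 CPM in HY mice. Endothelial markers summed to 894 to 1208 CPM and 695 to 892 CPM, and adipocyte progenitor markers to 493 to 603 CPM and 601 to 700 CPM. The part of these cells in the result was not tested.

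Nnt (chromosome 13, 119335527 to 119409257) encodes the enzyme that makes mitochondrial NADPH from NADH. It had 7, 7 and 1 counts in WT and 5, 6 and 1 counts in HY mice at 30°C, and 0, 2 and 4 and 5, 3 and 4 counts at 8°C. The sum was 45 of 224146745 sense counts, or 0.201 CPM, and Nnt was left out of the tests by the filter on low counts. Mice of the C57BL/6J strain, in which the HY allele was made, are known to carry a deletion of several exons of Nnt. The near absence of counts was shared by both genotypes at both temperatures. The files give 1 number for each gene, so which exons the few reads came from cannot be told.

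**Figure D2:**
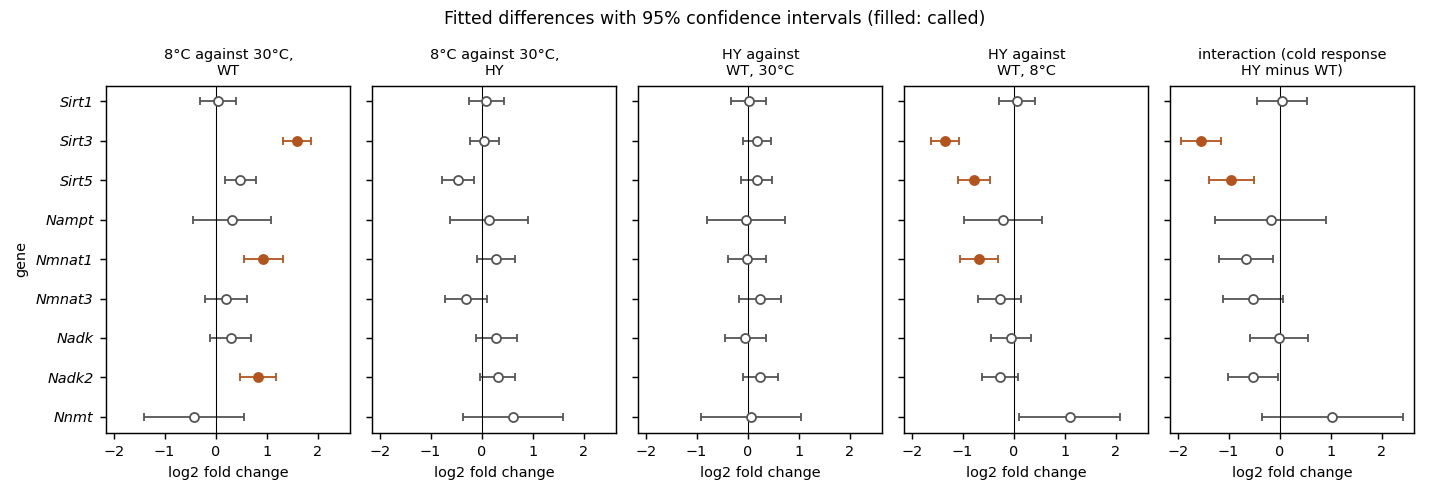
Fitted log2 fold changes of the 9 members tested, with 95% confidence intervals (horizontal bars), in the 4 pairwise comparisons and for the interaction, with filled points where a gene was called. Sirt3 lies at 1.59 for cold in WT mice and at 0.06 for cold in HY mice.

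In all, 3 of the 9 members tested were called higher and 0 lower by cold in WT mice, where 10.3% of all genes tested were called higher and 6.93% lower. In HY mice edgeR called 0 of 9 by cold, with 1 at an unadjusted p under 0.05 (Sirt5), beside 0.248% of all genes called in either direction, and DESeq2 and limma voom also called 0. Between the genotypes at 30°C edgeR called 0 of 9, with 0 at an unadjusted p under 0.05, beside 1.00% of all genes, and DESeq2 and limma voom again called 0. At 8°C 3 of 9 were called lower in HY mice, beside 4.42% of all genes, and 0 were called higher, beside 1.51%. The interaction was called for 2 of 9, both negative, beside 2.07% of all genes. The shares over all genes moved with the method. By cold in HY mice 30 genes were called higher and 11 lower, against 211 and 91 with DESeq2, 128 and 32 with the replicate number as a block, and 461 and 203 without HY 30°C replicate 3. At 30°C 93 genes were called higher and 73 lower, against 367 and 316 with DESeq2 and 5 and 21 without WT 30°C replicate 1. With only the libraries compared, 0 genes were called in either. With library totals in place of TMM, 1057 genes were called higher and 4144 lower by cold in WT mice, against 1707 and 1147, and 535 and 480 at 8°C, against 249 and 731.

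The median log2 fold change of the 9 members was 0.32 by cold in WT mice, beside −0.07 for all genes tested. It was 0.15 beside −0.01 by cold in HY mice, 0.06 beside −0.01 between the genotypes at 30°C and −0.27 beside 0.01 at 8°C. These comparisons share libraries: the 3 cold-exposed WT mice enter both the cold response of WT mice and the comparison at 8°C, so the call of Sirt3 and Nmnat1 in both is not independent evidence.

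Per kilobase of exon, Nnmt, Nadk and Nampt were the most abundant members in each group. In WT mice at 30°C their mean levels were 65.5, 50.1 and 29.4 CPM per kilobase, followed by Sirt3 at 10.9 and Sirt5 at 8.19. Nmnat1, Nadk2, Nmnat3 and Sirt1 were at 4.12, 3.95, 3.66 and 2.86, a range in which neighbours differed by less than their spread between mice, and Nnt was at 0.0265. In WT mice at 8°C Sirt3 reached 32.9 CPM per kilobase, near Nampt at 36.6. Exon lengths came from an older annotation (GENCODE M1), so the order between genes is approximate.

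Every cold-exposed WT mouse lay above all other mice in the summed markers of beige adipocytes, as it did for Sirt3, Nmnat1 and Nadk2. By cold in HY mice the markers Ucp1, Elovl3 and Cox7a1 were called higher, and Cidea, Dio2 and Cpt1b were not called. Sirt3, Nmnat1 and Nadk2 were not called there either. Summed over 6 genes, the markers were at 43.2 to 143 CPM in WT and 41.1 to 159 CPM in HY mice at 30°C. At 8°C they were at 7646 to 8619 CPM in WT and 409 to 1494 CPM in HY mice. Only Cpt1b was at 0 in a library, a HY library at 30°C. Macrophage markers summed to 109.6 to 118 CPM in WT and 160.5 to 242 CPM in HY mice at 8°C. Endothelial markers summed to 894 to 1208 CPM and 695 to 892 CPM in the same groups. The part of these cells in the results was not tested, and in bulk tissue fewer cells of a type cannot be told apart from less RNA per cell.

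The surrounding pathway was read from 79 further genes, of which 70 were tested. By cold in WT mice 23 were called higher and 0 lower, beside 10.3% and 6.93% of all genes. By cold in HY mice 1 was called higher (2 with the replicate number as a block), beside 0.248% of all genes in either direction. At 8°C 13 were called lower and 0 higher in HY mice, beside 4.42% and 1.51% of all genes. The interaction was called for 9, all negative, beside 2.07% of all genes, a number that was 2 without HY 8°C replicate 1 or replicate 3 and 14 without HY 30°C replicate 1. Over all genes, negative interactions numbered 64, 76 and 606 in those fits, in that order, against 342 in the main fit. The median log2 fold change of the 70 genes by cold in WT mice was 0.25, against 0.06 in HY mice. The 79 genes were chosen with earlier results of these data known. Some, such as Gpd2, Sod2 and Slc25a51, are among genes the paper lists from its RNA-seq as induced by cold and reduced in HY mice. The counts beside the shares of all genes are therefore not independent evidence.

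A list of 11 genes covered NADH shuttles, which carry cytosolic electrons into mitochondria, and also lactate dehydrogenase subunits. Of these 11, 8 were called higher by cold in WT mice (10.3% of all genes) and 6 were called lower in HY mice at 8°C (4.42% of all genes). Ldhb, a lactate dehydrogenase subunit, rose from 84.8 ± 23.9 to 465 ± 7.03 CPM (SD, n = 3) by cold in WT mice and was at 106 ± 39.1 and 142 ± 8.69 CPM in HY mice at 30°C and 8°C. Gpd2, the mitochondrial glycerol-3-phosphate dehydrogenase, rose by 2.28 ± 0.22 (SE, log2) in WT mice. Its cold response in HY mice was 0.33 on that scale and did not pass the test.

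Of the 14 genes listed for NADPH supply and NADPH phosphatase, 7 were called higher by cold in WT mice, against the same 10.3%. Me3, the mitochondrial NADP-dependent malic enzyme, was at 1.17 to 1.66 CPM in WT mice at 30°C and 10.9 to 12.8 CPM at 8°C, and at 1.54 to 2.01 CPM in cold-exposed HY mice. Noct, which encodes an NADPH phosphatase, was the only wider gene called by cold in HY mice, with a log2 fold change of 1.38 ± 0.24 (SE, edgeR adjusted p = 0.0416), beside 1.51 ± 0.24 in WT mice. With each library left out in turn, 0 wider genes were called by cold in HY mice in 9 of the 12 fits. Me1, the cytosolic malic enzyme, differed already at 30°C: it was at 587 to 863 CPM in WT and 2148 to 5967 CPM in HY mice, a log2 fold change of 2.30 ± 0.34 (SE, edgeR adjusted p = 0.0187). At 8°C it was at 3044 to 3804 CPM in WT and 3470 to 4602 CPM in HY mice, so its negative interaction of −2.15 went with a higher level at 30°C rather than a lower one at 8°C.

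Among sirtuin regulators and substrates, 6 of 9 tested were called higher by cold in WT mice and 4 were called lower in HY mice at 8°C, against the same 10.3% and 4.42%. Sod2, the mitochondrial superoxide dismutase and a substrate of SIRT3, rose from 125 ± 11.2 to 524 ± 33.9 CPM (SD, n = 3) by cold in WT mice and was at 171 ± 47.4 and 255 ± 8.75 CPM in HY mice at 30°C and 8°C. Ppargc1a, a coactivator deacetylated by SIRT1, rose by 2.72 ± 0.35 (SE, log2) by cold in WT mice, and its interaction was −2.19 ± 0.48 (SE, edgeR adjusted p = 0.0390). Acss2, the cytosolic acetyl-CoA synthetase, resembled Me1. It was at 210 to 235 CPM in WT and 604 to 1701 CPM in HY mice at 30°C, where it was called higher (log2 fold change 2.12 ± 0.35, SE, edgeR adjusted p = 0.0268).

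Slc25a51, the mitochondrial NAD carrier, was called higher by cold in WT mice. It was the only gene called there of the 8 tested for salvage, the Preiss-Handler route and transport, beside 10.3% of all genes called higher. It was at 80.4 to 106 CPM at 30°C and 291 to 348 CPM at 8°C, a log2 fold change of 1.84 ± 0.23 (SE, edgeR adjusted p = 0.000210). In HY mice Slc25a51 was at 78.4 to 160 CPM at 30°C and 184 to 229 CPM at 8°C, with a log2 fold change of 0.71 that did not pass the test (edgeR adjusted p = 0.190). Naprt, which starts NAD synthesis from nicotinic acid, was called lower in HY mice at 8°C, with a log2 fold change of −0.73 ± 0.14 (SE, edgeR adjusted p = 0.0110).

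Of 12 NAD-consuming enzymes tested, only Cd38, the NAD glycohydrolase, was called higher by cold in WT mice, beside 10.3% of all genes. The log2 fold change of Cd38 was 0.79 ± 0.20 (SE, edgeR adjusted p = 0.0154). Parp1 had 0.40 ± 0.10 (SE, edgeR adjusted p = 0.0134), under the fold limit. Of the other sirtuins, 0 of 4 were called by edgeR in any comparison. Sirt7, a nucleolar sirtuin named after its values were seen, had a log2 fold change of −0.56 ± 0.11 by cold in WT mice (SE, edgeR adjusted p = 0.00319), just short of the fold limit. Of 5 genes tested for NAD synthesis from tryptophan, Ido1 was called lower in HY than in WT mice at 30°C, beside 1.00% of all genes called in either direction. It was at 179 to 406 CPM in WT and 11.7 to 32.4 CPM in HY mice, a log2 fold change of −3.68 ± 0.66 (SE, edgeR adjusted p = 0.0320). In the same libraries markers of mammary epithelium summed to 2047 to 3682 CPM in WT and 527 to 1466 CPM in HY mice, and their part in the result was not tested. Between the genotypes at 30°C, 0 wider genes were called without WT 30°C replicate 1 or without replicate 2, so the calls of Me1, Acss2 and Ido1 rest on both. Of 7 genes tested for methyl donor supply and methylnicotinamide oxidation, 0 were called by edgeR in any comparison, with 3 at an unadjusted p under 0.05 by cold in WT mice.

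**Figure D3:**
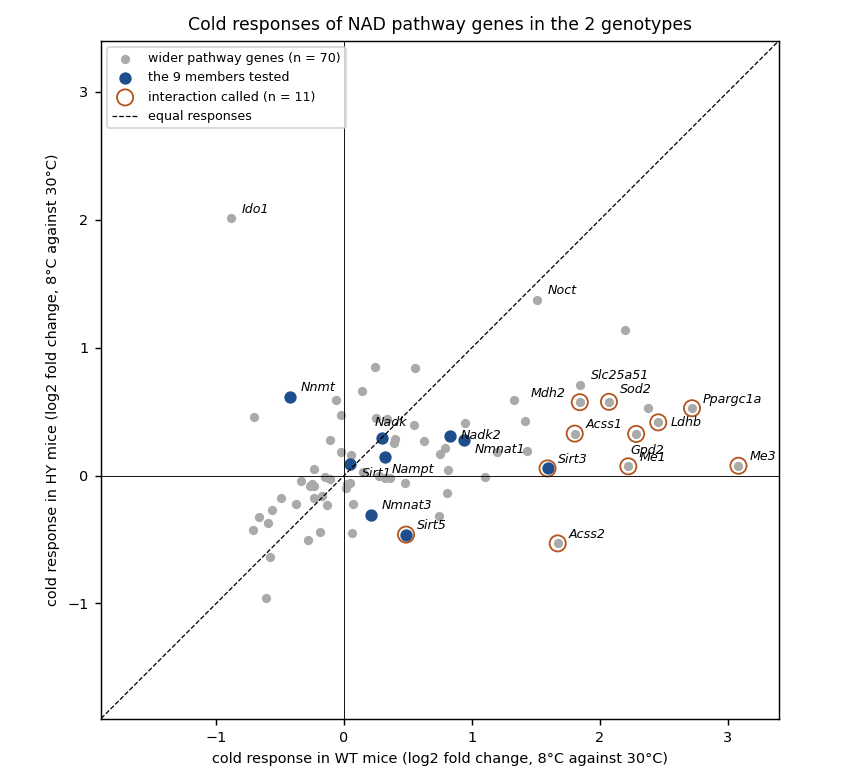
Cold responses (log2 fold change, 8°C against 30°C) of the 9 members tested and 70 wider pathway genes in WT mice (horizontal axis) and HY mice (vertical axis), with rings around the 11 genes whose interaction was called. The ringed genes all lie below the dashed line of equal responses, while Noct at 1.51 and 1.38 lies close to it.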

How the data were processed

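Total RNA from scWAT of 12 mice was sequenced as paired 50-base reads. Per the study's methods, the authors trimmed reads with fastp and aligned them with STAR to mm10 with GENCODE M25. The labels also name FastQC and StringTie, without versions. The deposited files hold raw counts of read pairs for 55401 genes, on both strands and on each strand, and the sense counts were used here. Rows that name no gene, which held 55.8% to 63.5% of read pairs, stayed out of library sizes. Pairs that align to several places were not counted.

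Gene IDs were matched to symbols with RefSeq and GENCODE M1 tables. Of 143 genes looked for, 131 matched by symbol, 7 by synonym and 1 (Nadk2) by its neighbours, and 4 were not matched. In R 4.3.3, edgeR 4.0.16 (filterByExpr on the 4 groups, TMM, glmQLFit and glmQLFTest, 1 mean per group, no covariates, 8 residual degrees of freedom) was fitted to all 12 libraries. The interaction, the cold response of HY minus that of WT mice, was called at an adjusted p under 0.05 alone. The p-values measure only the spread between these libraries, which the labels number without naming the animals.

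All 10 members were named, and of each wider list at most the 4 called genes with the largest change per comparison, with Slc25a51, Ppargc1a, Cd38 and Parp1 whatever they did. The members and lists were chosen with earlier results of these data known. Alternatives used DESeq2 1.42.0, limma 3.58.1 (voom), other scalings, filters and strands, fewer libraries and a block on the replicate number. Deviations of same-numbered libraries from their group means correlated from −0.069 to 0.346, above 0.1 in 11 of 18 pairs and in all 3 only between HY mice at 30°C and 8°C, where the blocked count is given with the result. The model was also run on simulated counts drawn from the means and spreads of these libraries, with fewer changed genes than were called here by cold in WT mice. Simulated libraries were drawn independently, so that run could not test the shared deviations of same-numbered libraries.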

Additional observations from a re-analysis of the deposited data

Results flagged for a closer look

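The cold response differed between the genotypes, by the interaction in the edgeR quasi-likelihood fit (p adjusted by Benjamini-Hochberg), for 2 members and 9 wider pathway genes, and in all of them the response of HY mice minus that of WT mice was negative. For Sirt5 and Acss2 the fitted response was positive in WT and negative in HY mice, where it was not called. Among the members the difference on the log2 scale was −1.54 for Sirt3 (adjusted p = 0.00691) and −0.95 for Sirt5 (adjusted p = 0.0339). The call of Sirt5 was lost in 11 of 21 alternative runs. For enzymes of NADPH supply it was −2.15 for Me1 and −3.01 for Me3. For NADH shuttles and lactate dehydrogenase it was −1.96 for Gpd2, −1.27 for Mdh2 and −2.04 for Ldhb. Among sirtuin regulators and substrates it was −2.19 for Ppargc1a, −1.5 for Sod2, −1.48 for Acss1 and −2.2 for Acss2. The adjusted p of these 9 lay between 0.0113 and 0.0390. For Me1 and Acss2 the groups differed at 30°C, where HY mice were higher, and neither was called at 8°C. The summed beige adipocyte markers moved with the genotypes at 8°C (at least 7646 CPM in WT and at most 1494 CPM in HY mice), and their part in these differences was not tested.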

How the results depend on the processing

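Of 981 values recomputed for the 45 pairs of a member and a comparison, 958 kept their call, 19 lost it and 4 gained it. In 0 cases did a called value change sign, and 47 values that were never called did. The calls of Sirt3 in WT mice, at 8°C and for the interaction held in every alternative run, with adjusted p of at most 0.0331 for the interaction (without HY 8°C replicate 1). Library totals in place of TMM moved the median of all genes by cold in WT mice from −0.07 to −0.41 on the log2 scale, and left 1 member called for the interaction (Sirt3). Other causes were not tested.

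On leaving out each library in turn, the members called numbered 0 to 1 by cold in HY mice (1, Nnmt, without HY 30°C replicate 3), 1 to 4 at 8°C (1 without HY 8°C replicate 1) and 1 to 3 for the interaction. For the wider genes the ranges were 0 to 8 by cold in HY mice (8 without HY 30°C replicate 3), 0 to 6 between the genotypes at 30°C (6 without HY 30°C replicate 1), 7 to 18 at 8°C (7 without HY 8°C replicate 3) and 2 to 14 for the interaction. The wider genes called by cold in HY mice numbered 2 with DESeq2, 2 without a filter and 0 with only the libraries compared. Between the genotypes at 30°C they numbered 6 with DESeq2, 5 without a filter, 5 at an adjusted p under 0.10 and 0 with only the libraries compared. At 8°C 20 were called with only the libraries compared, and for the interaction 16 with DESeq2 and 14 without a filter. The calls over all genes moved in the same fits. By cold in HY mice 461 genes were called higher and 203 lower without HY 30°C replicate 3, against 30 and 11 in the main fit. Called lower at 8°C were 301 genes without HY 8°C replicate 3 and 982 with only the libraries compared, against 731. Negative interactions numbered 712 with DESeq2 and 438 without a filter, against 342.

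With the replicate number as a block, 3, 0, 0, 3 and 2 members were called by cold in WT and in HY mice, between the genotypes at 30°C and 8°C and for the interaction, as without it. The block moved the wider genes called to 2 by cold in HY mice and to 14 for the interaction. Over all genes it moved the negative interactions called from 342 to 469. With 3 mice in a group, a member at the depth of Nnt, at most 7 counts in a library, could not be compared.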

Other observations

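For Nampt, Nadk and Nnmt the library with replicate number 3 had the highest CPM in all 4 groups, which held for 3 of the 9 members and for 6.73% of the 16540 genes tested. Number 1 or number 2 was highest in all 4 groups for 1.42% and 1.65% of genes and for 0 members. Nampt reached 155, 206, 181 and 206 CPM in these 4 libraries, and the summed white adipocyte markers were also highest in them, at 40520 and 46130 CPM at 30°C and 33550 and 43670 CPM at 8°C in WT and HY mice. With the replicate number as a block, the adjusted p of Nnmt between the genotypes at 8°C was 0.0533 by edgeR, against 0.177 without it, and the log2 fold change was 1.06. The labels do not say what the numbers share, and their part was not tested.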
